A study of Mus musculus with 12 samples.

Results

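The D-type cyclins, the kinases they bind, the inhibitors of those kinases and the pocket proteins that the kinases phosphorylate were followed by array across 4 groups of cells from mouse marrow. The 10 genes were Ccnd1, Ccnd2, Ccnd3, Cdk4, Cdk6, Cdkn1b, Cdkn2c, Cdkn2d, Rb1 and Rbl1, taken by gene symbol. They had 24 of the 45281 probes on the array, and 21 of these were detected on at least 3 of the 12 arrays. All 10 genes were among the 11472 genes tested.

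A D-type cyclin joins CDK4 or CDK6 when growth signals such as SCF reach a resting cell, and the complex phosphorylates the retinoblastoma protein RB1 and its relative p107, the product of Rbl1. Phosphorylated pocket proteins release E2F transcription factors, which turn on the genes of DNA synthesis. The inhibitors p18 (Cdkn2c) and p19 (Cdkn2d) bind CDK4 and CDK6 directly, and p27 (Cdkn1b) binds cyclin and CDK complexes. In marrow these proteins set when stem and progenitor cells enter the cell cycle and when maturing blood cells leave it.

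The cells came from mice aged 3 months that carried a β-globin/GFP fusion transgene, as did every group, and were separated by CD117, the receptor c-Kit, whose ligand is stem cell factor (SCF). There were 3 arrays of CD117- cells (A), 3 of CD117+ cells (C), 3 of a further set of CD117+ cells titled U, and 3 of CD117+ cells treated with 3 µg/ml SCF for 48 h. No label says what U stands for, and the time in culture of the U and C cells is not stated. The study set out to learn whether DNA repair genes are expressed more highly in c-Kit+ cells and whether SCF raises them further, and it also followed the cell cycle. The methods say that the sorted CD117+ and CD117- cells came from 3 mice, with a separate mouse for each replicate, so A and C may share mice. They do not say which arrays share one and are silent on the treated cells, so p-values that involve U and SCF measure only the spread between these arrays, which may be technical. The authors normalized the A and C arrays in one set and the U and SCF arrays in another, and in the comparisons of U or SCF with C or A the set and the group cannot be told apart.

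Levels are normalized log2 intensities of the brightest detected probe of each gene, and a change is called at an adjusted p under 0.05 by limma (two-sided, Benjamini-Hochberg over all 11472 genes). Arrays detected between 16210 and 18248 probes, and the dimmest probe level counted as detected lay between 4.63 and 4.82 on the log2 scale. Kit, which encodes CD117, measured 9.58, 8.94 and 9.51 on the A arrays and 11.39, 11.53 and 11.57 on the C arrays. It measured 10.39, 10.17 and 10.06 on the U arrays and 10.72, 10.74 and 10.61 with SCF. Kit was therefore lowest in CD117- cells, 4.46-fold below C (adjusted p = 4.94e-09 by limma), and U and SCF lay between these groups.

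In the sorted cells, C against A, 2 of the 10 genes were higher in CD117+ cells and 5 were lower. Ccnd2 and Cdk4 rose, whereas Ccnd3, the inhibitors Cdkn1b, Cdkn2c and Cdkn2d, and Rb1 fell. Of all genes tested, 29.6% were higher and 21.3% were lower, so 51.0% were called in either direction. The arrays of the 2 groups did not overlap for 8 of the 10 genes, against 57.2% of all genes. The median change of the 10 genes was -0.44 on the log2 scale and that of all genes 0.07. Scaling each array to its median in place of quantile normalization moved the median of all genes to 0.49 and the calls from 3398 higher and 2448 lower to 5999 higher and 1023 lower. Under that scaling 3 of the 10 genes were called higher (Ccnd1, Ccnd2 and Cdk4) and 3 lower (Cdkn1b, Cdkn2c and Cdkn2d).

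With SCF against U, 3 of the 10 genes rose, namely Ccnd1, Cdk4 and Rbl1, and 2 fell, namely Ccnd3 and Rb1. Of all genes, 14.1% rose and 13.7% fell (27.8% in either direction). Arrays did not overlap for 7 of the 10 genes, beside 42.0% of all genes, though 1 of the 7, Cdkn1b, was detected on 1 U array and on none with SCF and so has no order there, and the median change was 0.09 for the 10 genes and 0.02 for all. When 1 array at a time was left out, between 2 and 4 genes rose and between 1 and 2 fell.

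Between the CD117+ groups without SCF, U against C, 3 genes were higher in U (Ccnd1, Cdkn2d and Rb1) and 4 were lower (Cdk4, Cdkn1b, Cdkn2c and Rbl1). Over all genes 28.5% were higher and 28.5% lower (57.1% called). SCF against C gave 2 higher (Ccnd1 and Cdkn2d) and 2 lower (Cdkn1b and Cdkn2c), where 24.6% of all genes were higher and 21.9% lower (46.5% called). Arrays of U and C did not overlap for 7 of the 10 genes, beside 65.7% of all genes, and those of SCF and C for 4, beside 58.9%. Median scaling turned the calls of U against C from 3274 higher and 3275 lower into 3792 and 2422, and those of SCF against C from 2823 and 2514 into 3874 and 1375. Against A, 2 genes were higher and 6 lower in U (34.4% and 25.7% of all genes, 60.1% called), and 3 were higher and 5 lower with SCF (35.9% and 25.8% of all genes, 61.7% called). Arrays were apart for 7 genes in each of these comparisons, beside 62.0% of all genes for U and 63.9% for SCF. The comparisons with C share the C arrays and those with SCF share the SCF arrays, as those with A and U share theirs, so their values are given side by side and are not independent of each other.

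**Figure D1:**
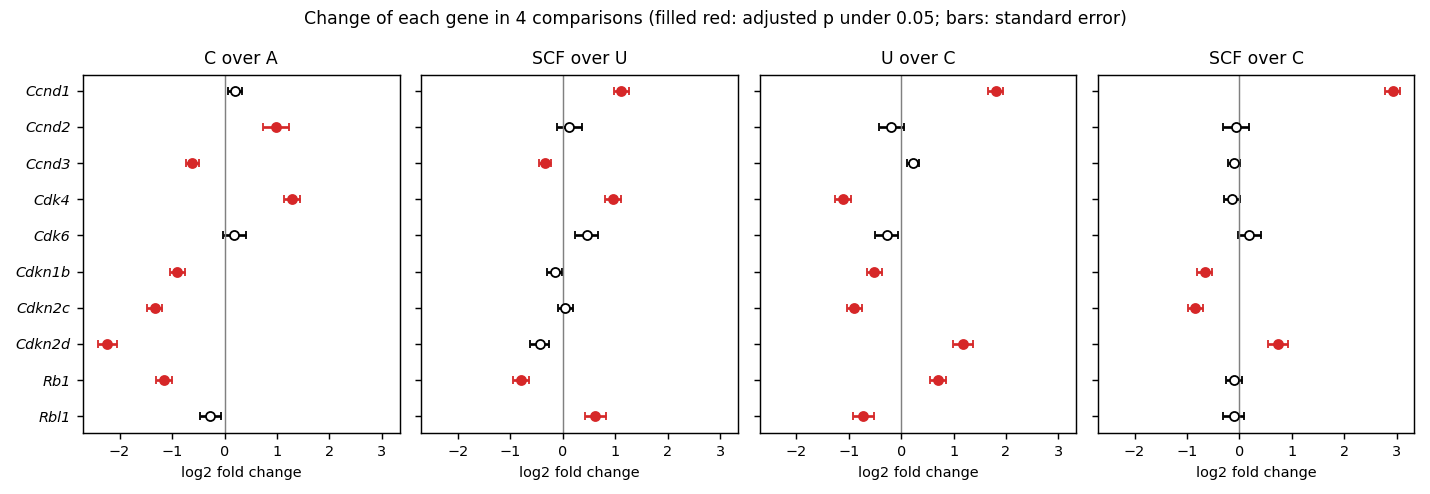
Change of each of the 10 genes in 4 comparisons, as log2 fold change on the x axis with its standard error as the bar and red filled points for an adjusted p under 0.05. Ccnd1 stands at 2.92 in SCF over C, and Cdkn2d at -2.24 in C over A.

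Among the cyclins, Ccnd1 was lowest in A and C, higher in U and highest with SCF. Ccnd1 encodes cyclin D1, a cyclin whose transcription follows mitogen signalling. Its level was 7.07, 7.16 and 6.84 on the A arrays and 7.28, 7.20 and 7.18 on the C arrays. On the U arrays it was 8.87, 9.19 and 9.02, and with SCF 10.16, 10.24 and 10.02. No array of A or C reached the U arrays, and no U array reached the SCF arrays. Ccnd1 was 1.12 higher on the SCF arrays than on the U arrays (SE 0.14, 2.17-fold, adjusted p = 2.73e-05 by limma). U exceeded C by 1.80 (3.49-fold, adjusted p = 1.33e-08), and SCF exceeded C by 2.92 (7.57-fold, adjusted p = 4.82e-11). The difference of C from A was 0.20 (SE 0.14, adjusted p = 0.263) and did not pass, but with median scaling it was 0.84 (adjusted p = 0.000127), 0.36 above that scaling's median of all genes. The other 2 Ccnd1 probes gave 1.18 and 1.35 for SCF over U. The dimmest of the probes gave 0.54 for C over A (adjusted p over probes = 0.0336) and was detected on 1 of the 3 A arrays. Without A replicate 1 that change was 0.35.

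Ccnd2 encodes cyclin D2, which also responds to cytokines in blood cells. It measured 6.88, 7.24 and 8.15 on the A arrays and 8.33, 8.30 and 8.60 on the C arrays, so the A arrays were the more scattered and all lay lower. C exceeded A by 0.99 (SE 0.24, adjusted p = 0.00274). The U arrays read 8.37, 8.20 and 8.10 and the SCF arrays 8.58, 8.42 and 8.05, which overlap each other and the C arrays. The changes were 0.13 for SCF over U (adjusted p = 0.755), -0.19 for U over C (adjusted p = 0.537) and -0.06 for SCF over C (adjusted p = 0.862). U exceeded A by 0.80 (adjusted p = 0.00944) and SCF exceeded A by 0.92 (adjusted p = 0.00341), with A replicate 3, at 8.15, reaching into the range of both. At this brightest probe, neighbours among the CD117+ groups did not differ beyond their spread. Of its 4 detected probes, 3 gave 0.99 to 1.00 for C over A, and the dimmest gave 0.06. The third by brightness also fell in U against C, by 0.93 (adjusted p over probes = 0.00153 by limma), and in SCF against C, by 0.62 (0.0259). Its rises over A were not called, at 0.07 for U (0.803) and 0.37 for SCF (0.147).

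Ccnd3 encodes cyclin D3, the D-type cyclin needed by immature lymphocytes and in the last divisions of erythroid precursors. Its levels were 12.64, 12.52 and 12.65 in A, 12.15, 12.02 and 11.80 in C, 12.39, 12.17 and 12.10 in U, and 12.04, 11.78 and 11.82 with SCF. All A arrays were above all others, and the SCF arrays were below all U arrays. C differed from A by -0.61 (SE 0.12, adjusted p = 0.000354). Under median scaling this was -0.06 (adjusted p = 0.751), or -0.55 relative to that setting's median of all genes. SCF against U gave -0.34 (SE 0.12, adjusted p = 0.0418), a call that was lost in 12 of the alternatives tried, among them leaving out A replicate 1 (adjusted p = 0.0523), C replicate 2 (0.0584), U replicate 1 (0.189), U replicate 2 (0.0666), SCF replicate 2 (0.14) or SCF replicate 3 (0.113). The 2 other probes, both annotated to another Ccnd3 transcript, did not move together. The brighter of them fell by 1.64 in C against A and changed by 0.02 in SCF against U. The dimmer was detected on none of the 3 A arrays, and in U it was at 6.36 ± 0.32 against 4.67 ± 0.20 in C (SD, n = 3), a rise of 1.68 (adjusted p over probes = 4.38e-07 by limma) where the brightest Ccnd3 probe gave 0.23 (adjusted p = 0.108). In U against A these 2 probes were called in opposite directions, the brightest at -0.38 (adjusted p = 0.0102) and the dimmest at least 3.01-fold higher in U (adjusted p over probes = 1.29e-07). The same held in SCF against A, at -0.72 (adjusted p = 5.29e-05) and at least 2.37-fold higher (adjusted p over probes = 1.54e-06).

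Of the kinases, Cdk4 was high in C and in SCF-treated cells and low in A and U. CDK4 is the catalytic partner of the D cyclins. The A arrays measured 9.89, 10.02 and 10.33 and the C arrays 11.56, 11.22 and 11.30. The U arrays measured 10.29, 10.42 and 10.03 and the SCF arrays 11.09, 11.06 and 11.47. The C and SCF arrays overlapped each other, the A and U arrays overlapped each other, and the 2 pairs were apart. C exceeded A by 1.28 (SE 0.15, 2.43-fold, adjusted p = 2.74e-06). U was lower than C, with a change of -1.11 (SE 0.15, adjusted p = 1.03e-05). SCF exceeded U by 0.96 (SE 0.15, 1.95-fold, adjusted p = 0.000206) and stood at -0.15 against C (adjusted p = 0.457). U over A was 0.17 (adjusted p = 0.362). A dimmer Cdk4 probe gave 1.15 for C over A, 1.39 for SCF over U and -0.80 for U over C, the last not past the threshold (adjusted p over probes = 0.0929). At this probe single arrays carried much of the change: A measured 7.10, 7.07 and 5.66 and SCF 7.80, 7.80 and 9.47. Without A replicate 3, C over A was 0.68, and without SCF replicate 3, SCF over U was 0.84.

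The Cdk4 promoter is printed because Cdk4 was the kinase that moved in both C over A and SCF over U. Its letters, from RefSeq on build GRCm38.p6, are chr10:127063285-127063584 on the plus strand, 250 bases before to 50 after the start of transcription, and the capitals mark CACGTG, the E-box bound by MYC and related factors.
Cdk4: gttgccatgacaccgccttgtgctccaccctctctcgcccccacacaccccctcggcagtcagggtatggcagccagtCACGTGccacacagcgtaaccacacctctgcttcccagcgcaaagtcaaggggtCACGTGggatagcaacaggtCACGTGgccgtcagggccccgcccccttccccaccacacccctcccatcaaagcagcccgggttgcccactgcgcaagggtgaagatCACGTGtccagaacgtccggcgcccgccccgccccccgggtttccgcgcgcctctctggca
The gene itself spans chr10:127063535-127067288. CACGTG, which reads the same on both strands, began at positions -172, -118, -98 and -11 from the start site. It was searched for only after the promoters had been read. Of 32851 mouse promoters of this length, 7.15% held CACGTG at least once and 0.0244%, or 8, held it 4 or more times. Among the 10 genes, 7 had a promoter in the reference table, with 9 promoters in all, and 3 of the 9 held CACGTG: that of Cdk4, 1 of Cdk6 at -220 and 1 of Cdkn2c at 35. A match of letters is a description of the window and not of binding.

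Cdk6, the other partner of the D cyclins, was near the limit of detection. Its 1 probe measured 4.44, 4.38 and 4.83 in A, 4.46, 4.34 and 5.41 in C, 4.32, 4.58 and 4.49 in U, and 5.15, 4.83 and 4.78 with SCF. It was detected on 1 array of A, 1 of C, none of U and all 3 of SCF. Every SCF array lay above every U array. The change was 0.46 (SE 0.22, adjusted p = 0.138) and did not pass. Set against the detection limit of the U arrays, the SCF mean was 1.21-fold higher, a difference that was not called. Such a bound takes the dim group at the level of the dimmest detected probe on each array. It compares means and makes no allowance for their spread. Much of the spread of Cdk6 came from C replicate 3. Without it, C over A went from 0.19 (adjusted p = 0.512) to -0.15, U over C from -0.27 (adjusted p = 0.304) to 0.064, SCF over U had adjusted p = 0.0309 and SCF over C was 0.52 (adjusted p = 0.0191), against 0.18 (adjusted p = 0.526) with it.

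**Figure D2:**
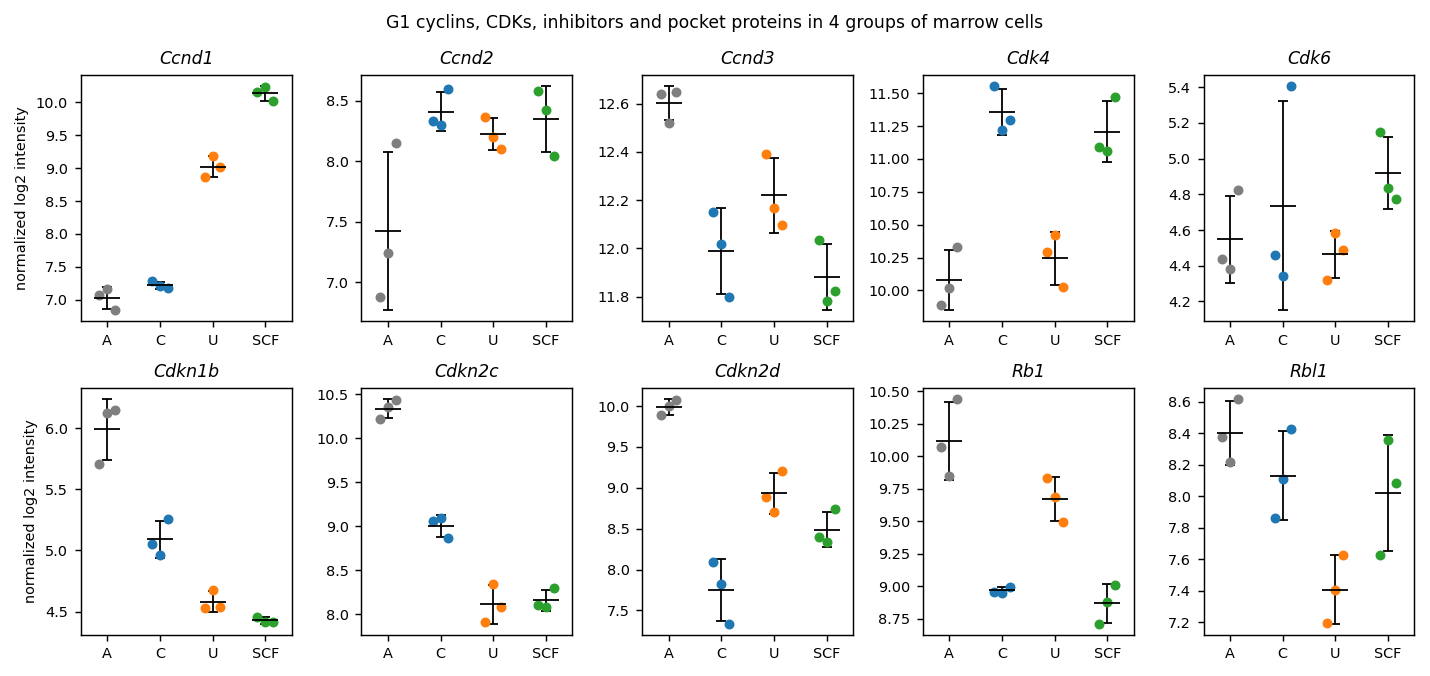
Normalized log2 intensity of the brightest probe of each gene on every array, by group (A, CD117- cells; C and U, CD117+ cells; SCF, CD117+ cells with SCF), with horizontal lines at the mean and bars of 1 SD over 3 arrays. Ccnd1 climbs to 10.24 on the highest SCF array, and the mean of Cdkn2c falls from 10.34 in A to 8.11 in U.

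The inhibitors among the 10 genes, Cdkn2d, Cdkn2c and Cdkn1b, were highest in CD117- cells. Cdkn1a, an inhibitor outside the 10, was not, with means of 6.81 in A and 11.22 in U. Cdkn2d encodes p19, which binds CDK4 and CDK6. It measured 9.88, 10.00 and 10.08 on the A arrays, 8.09, 7.82 and 7.34 on the C arrays, 8.88, 8.70 and 9.21 on the U arrays and 8.40, 8.33 and 8.74 on the SCF arrays. The order was A, U, SCF, C, and only U and SCF overlapped. C was 4.71-fold below A, at -2.24 on the log2 scale (SE 0.19, adjusted p = 3.93e-08). U exceeded C by 1.18 (adjusted p = 4.24e-05) and SCF exceeded C by 0.74 (adjusted p = 0.0038). SCF against U was -0.44 (SE 0.19, adjusted p = 0.0904).

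Cdkn2c, which encodes p18, an inhibitor known to restrain the division of blood stem cells, followed another order. It measured 10.22, 10.36 and 10.43 in A, 9.06, 9.09 and 8.86 in C, 7.92, 8.34 and 8.08 in U, and 8.10, 8.08 and 8.30 with SCF. A was above C, and C was above both U and SCF, which overlapped. C differed from A by -1.33 (SE 0.14, 2.51-fold, adjusted p = 6.64e-07). U differed from C by -0.89 (adjusted p = 4.18e-05) and SCF from C by -0.84 (adjusted p = 0.000108). SCF over U was 0.05 (adjusted p = 0.842). A dimmer probe of Cdkn2c gave -0.74 for C over A. It gave -0.13 for U over C (adjusted p over probes = 0.601 by limma) and -0.20 for SCF over C (0.432), neither past the threshold.

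Cdkn1b, which encodes p27, was also highest in A, followed by C. Its levels were 5.71, 6.12 and 6.15 in A, 5.05, 4.96 and 5.26 in C, 4.53, 4.68 and 4.53 in U, and 4.46, 4.41 and 4.41 with SCF. The arrays of A, C and U did not overlap. The probe was detected on all 3 arrays of A and of C, on 1 of U and on none with SCF, so the SCF level is only a bound and has no order against U. C differed from A by -0.90 (SE 0.14, 1.87-fold, adjusted p = 5.64e-05) and U from C by -0.51 (adjusted p = 0.00589), with only 1 of the 3 U arrays above detection. SCF was at least 1.36-fold lower than C (adjusted p = 0.0011) and at least 2.54-fold lower than A (adjusted p = 6.93e-08). The other 2 probes of Cdkn1b were not detected on any array, so p27 rests on 1 probe.

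The pocket protein Rb1, the main target of CDK4, was high in A and U and low in C and with SCF at its brighter probe. It measured 10.07, 9.85 and 10.44 in A, 8.96, 8.95 and 9.00 in C, 9.83, 9.68 and 9.49 in U, and 8.71, 8.88 and 9.01 with SCF. At this probe the C and SCF arrays overlapped, and both were below every A and U array. C differed from A by -1.15 (SE 0.15, 2.22-fold, adjusted p = 7.9e-06), SCF from U by -0.80 (SE 0.15, 1.74-fold, adjusted p = 0.000831), and U from C by 0.70 (adjusted p = 0.000791). Under median scaling the first of these was -0.45 (adjusted p = 0.0838) and lost its call, at -0.93 relative to the median of all genes. The second Rb1 probe gave -1.08 for C over A and -0.93 for SCF over U. It gave 1.91 for U over C and 0.98 for SCF over C (adjusted p over probes = 0.000147), where the first probe gave -0.10 for SCF over C (adjusted p = 0.633). The position of SCF against C was therefore not the same at the 2 Rb1 probes, which measured 8.28 ± 0.13 in C and 9.26 ± 0.39 with SCF at the second (SD, n = 3). U against A was called in opposite directions at the 2 probes, -0.45 (adjusted p = 0.0177) at the first and 0.84 (adjusted p over probes = 0.000402) at the second. SCF against A was -1.25 (adjusted p = 2.04e-06 by limma) at the first and -0.09 (adjusted p over probes = 0.648) at the second.

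Rbl1 encodes p107, a pocket protein that is itself an E2F target and rises in cycling cells. It measured 8.37, 8.22 and 8.62 in A, 7.86, 8.11 and 8.43 in C, 7.19, 7.40 and 7.62 in U, and 7.63, 8.36 and 8.09 with SCF. U was the lowest group on all its arrays, the highest U array lying at 7.62 and the lowest SCF array at 7.63. SCF exceeded U by 0.62 (SE 0.20, adjusted p = 0.0295), a call lost without U replicate 1 (adjusted p = 0.123), U replicate 2 (0.0711), SCF replicate 2 (0.145) or SCF replicate 3 (0.0813). U differed from C by -0.72 (adjusted p = 0.0053), a call lost under median scaling (adjusted p = 0.0562). C over A was -0.27 (SE 0.20, adjusted p = 0.281) and turned to 0.46 (adjusted p = 0.114) under median scaling. A dimmer probe gave 0.43 for SCF over U, but it lay near the detection limit. It was detected on 1 U array and on no A array, with means of 4.58 in U and 5.01 with SCF. Another probe was detected on 1 array.

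The Rbl1 promoter is shown as the only one of the 9 that held E2F letters. It is chr2:157204485-157204784 on the minus strand of GRCm38.p6, from RefSeq, printed in the direction of transcription, and the capitals mark TTTCGCGC, which begins at -18 from the start site.
Rbl1: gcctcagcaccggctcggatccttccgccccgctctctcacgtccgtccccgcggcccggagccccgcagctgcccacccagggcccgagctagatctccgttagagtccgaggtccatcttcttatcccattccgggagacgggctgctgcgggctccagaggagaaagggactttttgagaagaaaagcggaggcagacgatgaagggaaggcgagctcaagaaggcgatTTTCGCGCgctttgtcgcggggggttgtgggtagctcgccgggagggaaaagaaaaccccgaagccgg
The letters searched on both strands were TTTCCCGC, TTTCGCGC, TTTGCCGC and TTTGGCGC for E2F, and 744 of the 32851 promoters, or 2.26%, held one of them. The CHR element TTTGAA, found in promoters of mitotic genes, was in 0 of the 9 and in 17.9% of all, or 5878. The absence of letters from a window of 300 bases says nothing of binding elsewhere.

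**Figure D3:**
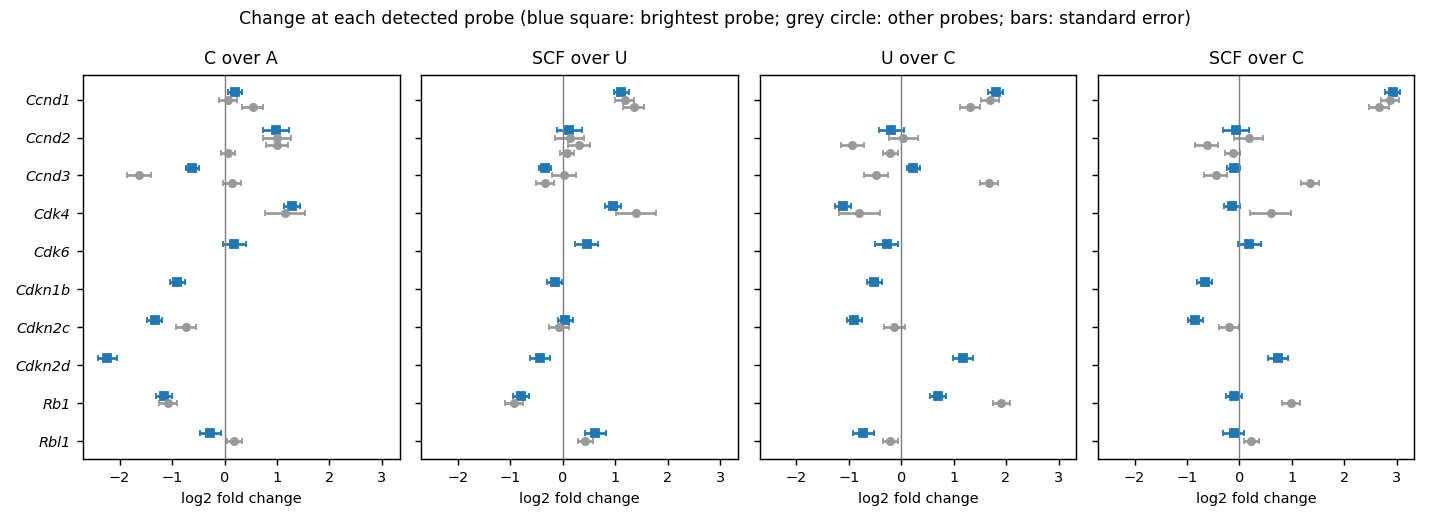
Log2 fold change at each detected probe of the 10 genes in 4 comparisons, with the standard error as the bar, a blue square for the brightest probe and grey circles for the others. At Rb1 in SCF over C the brightest probe is at -0.10 and the other at 0.98, and at Ccnd3 in U over C the probes range from -0.48 to 1.68.

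Over the 7 genes with several detected probes and the 4 comparisons, 17 of 28 pairs of gene and comparison had a probe with another sign or on another side of the threshold than the brightest one. In 0 of the 28 were 2 probes called in opposite directions, which happened for Ccnd3 and Rb1 in U against A and for Ccnd3 in SCF against A. Cdk6, Cdkn1b and Cdkn2d rested on 1 detected probe each.

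Of 34 listed cyclins, kinases, inhibitors and E2F and DREAM complex genes, 30 were tested. In C against A 6 were higher and 6 lower, beside 29.6% and 21.3% of all genes. E2f2, an activator E2F strongly expressed in erythroid precursors, differed by -2.76 (6.76-fold), and Tfdp2, a dimerization partner of E2F, by -1.35. E2f6, a repressive E2F, was 0.98 higher. In SCF against U 8 rose and 3 fell, beside 14.1% and 13.7% of all genes. Tfdp1, another E2F partner, rose by 0.73 (SE 0.11, adjusted p = 0.00017 by limma) and Ccnh, a subunit of the CDK-activating kinase, by 0.76. Ccna2, which encodes cyclin A2, rose by 0.73 (adjusted p = 0.00327) and Ccne1, which encodes cyclin E1, by 0.62 (adjusted p = 0.0121). Cdkn2b, the INK4 inhibitor p15, differed by -0.56 (adjusted p = 0.00552).

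In U against C 7 of these 30 genes were higher and 12 lower, beside 28.5% of all genes in each direction. Cdkn1a, the p21 inhibitor, was 28.8-fold higher in U than in C, at 4.85 on the log2 scale (adjusted p = 5.57e-13), and 33.9-fold higher with SCF than in C, while SCF over U was 0.23 (adjusted p = 0.331). Its 2 other probes gave 4.64 and 4.14 for U over C. Cdkn2b, detected on no A or C array, was at least 1.86-fold higher in U than in C (adjusted p = 1.67e-06 by limma). Ccna2, also detected on no A or C array, was at least 1.89-fold higher in U than in C (adjusted p = 1.04e-05 by limma). Ccne1 differed by -2.64, Cdc25a, the phosphatase that activates CDK2, by -2.41, and Tfdp1 by -1.24. SCF against C gave 9 higher and 10 lower, beside 24.6% and 21.9% of all genes. The median change of the 30 genes was 0.03 in C against A, 0.27 in SCF against U, -0.25 in U against C and -0.15 in SCF against C, where all genes had 0.07, 0.02, -0.01 and -0.01.

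The summed levels of the genes downstream were lowest in U. Of 22 listed E2F target genes of S phase 19 were tested, and 17 rose and 0 fell in SCF against U, with a median of 0.91. Tyms (thymidylate synthase), Mcm4 (a subunit of the replicative helicase) and Rrm2 (ribonucleotide reductase) rose by 1.17, 0.82 and 1.22. In U against C 17 of the 19 were lower and 1, Pcna, was higher (1.35), with a median of -1.40, and in C against A 7 were higher and 1 lower, with a median of 0.29. Of 20 listed mitosis genes 15 were tested and 15 rose with SCF against U, with a median of 0.80. Among them Bub1b, a spindle checkpoint kinase, rose by 1.10, Top2a, topoisomerase II, by 1.12 and Birc5, survivin, by 0.81. In U against C 13 mitosis genes were lower and 1 higher, and in C against A 4 were lower and 0 higher. SCF against C gave 2 higher and 10 lower E2F targets, and 2 higher and 6 lower mitosis genes. Of all genes, 14.1% rose and 13.7% fell in SCF against U, and 28.5% were called in each direction in U against C. In C against A 29.6% of all genes were higher and 21.3% lower, and in SCF against C 24.6% and 21.9%. Measured over the E2F targets, the summed level lay between 14.67 and 14.71 in A, between 14.97 and 15.07 in C, between 13.61 and 13.75 in U and between 14.52 and 14.71 with SCF. For the mitosis genes these ranges were 14.81 to 14.85, 14.47 to 14.55, 13.33 to 13.42 and 14.05 to 14.26 in the same order.

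**Figure D4:**
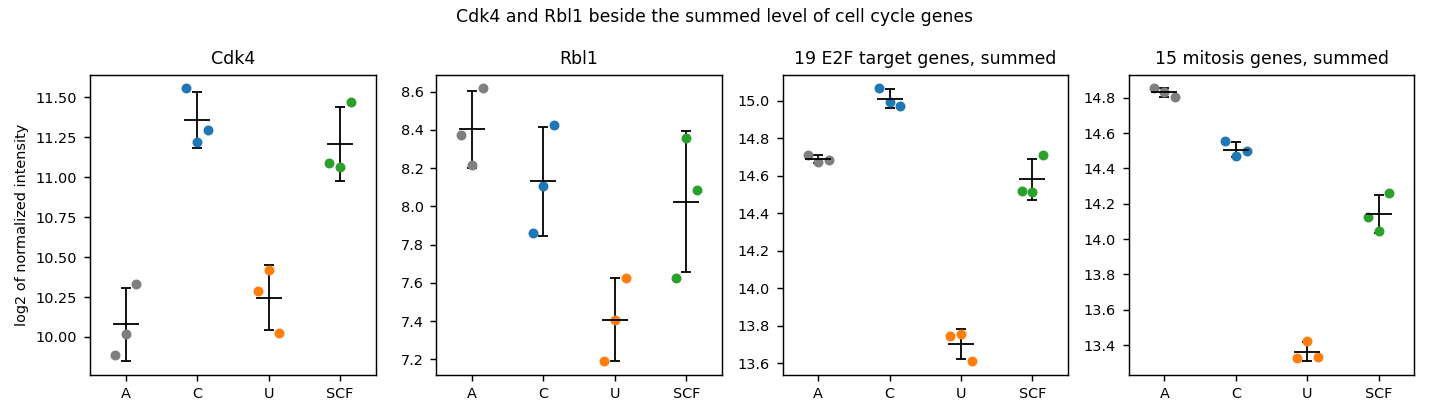
Normalized log2 intensity of Cdk4 and Rbl1 and the log2 summed level of 19 E2F target genes and 15 mitosis genes on each array, by group, with lines at the mean and bars of 1 SD over 3 arrays. All 4 are higher on every SCF array than on every U array, and the mitosis genes, unlike Cdk4, are highest in A.

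Markers of blood lineages differed between the groups as well, and their part in the changes above was not tested. In such mixtures fewer cells of a type and less RNA per cell cannot be told apart. The marker counts below stand beside 29.6% of all genes higher and 21.3% lower in C against A. These shares were 28.5% in each direction in U against C, and 14.1% and 13.7% in SCF against U. In SCF against C they were 24.6% and 21.9%. Of 10 mature neutrophil markers, 9 were lower in C than in A and 9 were higher in U than in C. Their summed level was 16.62 to 16.79 in A, 10.78 to 11.65 in C, 15.05 to 15.16 in U and 14.88 to 15.01 with SCF, and Mmp8 was detected on no C array. Cdkn2d and Rb1 had the same direction in these comparisons, lower in C than in A and higher in U than in C. Most monocyte and macrophage markers, given below, had these directions too. In SCF against U, 2 neutrophil markers were higher and 3 lower.

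Of 7 erythroid markers, 5 were lower in C than in A, and in U against C 4 were lower and 1, Tfrc, the transferrin receptor, was higher (1.39), and SCF against U gave 5 lower and 1 higher. Their summed level was 16.30 to 16.34 in A, 15.06 to 15.34 in C, 14.74 to 14.82 in U and 13.36 to 13.71 with SCF, and Rhag was detected on no U array. Cdkn1b and, at its brighter probe, Cdkn2c were likewise highest in A and lower in U than in C. The summed levels of the mitosis genes above, and of the T and NK cell and eosinophil markers below, had this order too. In SCF against U, where 5 erythroid markers were lower, Cdkn2c changed by 0.05 and Cdkn1b had no order. Of 9 monocyte and macrophage markers, 8 were lower in C than in A and all 9 were higher in U than in C. In SCF against U 7 of them fell and 1 rose. Their summed level was 14.13 to 14.32 in A, 12.30 to 12.61 in C, 14.49 to 14.85 in U and 13.61 to 14.33 with SCF. Of 8 megakaryocyte and platelet markers, 7 were higher in U than in C and 7 were lower with SCF than in U. Their summed level was 11.96 to 13.27 in A, 13.09 to 13.64 in C, 15.67 to 15.74 in U and 14.33 to 14.40 with SCF.

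All 6 B cell markers tested were lower in C than in A. Their summed level was 13.40 to 13.90 in A, 10.92 to 11.30 in C, 12.38 to 12.77 in U and 12.52 to 12.80 with SCF. Most of this sum in U and SCF was 1 gene, Cd74, with means of 12.47 in U and 12.55 with SCF against 10.66 in C. In SCF against C, Cd74 was the 1 marker higher and 4 were lower. Rag1 was detected on no C array and Igll1 on no U or SCF array. In U against C 1 B cell marker was higher and 2 were lower, and 1 fell with SCF against U. Of 6 T and NK cell markers, 2 were lower in C than in A, 2 were higher and 2 lower in U than in C, and 1 rose and 4 fell with SCF against U, over a summed level of 12.20 to 12.41 in A, 11.13 to 11.42 in C, 10.11 to 10.58 in U and 10.45 to 10.81 with SCF. All 3 eosinophil markers tested were lower with SCF than in U. Their summed level was 14.32 to 14.38 in A, 14.09 to 14.24 in C, 13.38 to 13.68 in U and 10.59 to 10.70 with SCF. In C against A 2 of these 3 were lower, and in U against C 1 was higher and 2 were lower.

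Of 7 mast cell and basophil markers, 5 were higher and 1 lower in C than in A, 3 were higher in U than in C, and 2 rose and 1 fell with SCF against U. Their summed level was 12.57 to 12.71 in A, where Ms4a2 and Cma1 were detected on no array, 13.08 to 13.22 in C, 13.23 to 13.46 in U and 13.09 to 13.54 with SCF. Of 7 stem and progenitor markers, Kit among them, 6 were higher in C than in A, 1 was higher and 3 were lower in U than in C, and 2 rose and 1 fell with SCF against U. Their summed level was 10.97 to 11.45 in A, 12.68 to 12.78 in C, 12.27 to 12.52 in U and 12.38 to 12.58 with SCF, and Hoxa9 was detected on no A or U array.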

How the data were processed

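RNA of 12 samples of mouse marrow cells was hybridised to Illumina arrays. The authors deposited raw scanner intensities, without background correction, beside a detection p-value per probe on each array. They also deposited processed intensities, linear in scale, which had been quantile normalized in separate sets for A with C and for U with SCF. No source used here names the array model or the scanner software. The methods mention sequencing and counts, but the files hold array intensities.

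The raw intensities were background corrected by neqc (limma 3.58.1, R 4.3.3), with negative controls inferred from the detection p-values, then quantile normalized across the 12 arrays and turned to log2 after an offset of 16. A probe was kept when its detection p was under 0.05 on 3 or more arrays, and 17712 such probes had a gene symbol once symbols were updated to RefSeq (GRCm38.p6). The brightest probe stood for each gene, and 11472 genes were fitted with 4 group means (8 residual degrees of freedom) and moderated with a trend in intensity. Bounds compare the brighter group with the dimmest detected level of each array. Groups came from the sample titles. Alternatives changed the scaling, the offset, the filter on dim probes, the probe rule, the arrays fitted, the moderation, the replicate block and each array in turn. Leaving out single arrays at the dimmer probes was chosen after seeing the data. The fit was tested on simulated data, in which it recovered the larger of the changes put in. The members and gene lists were chosen with earlier results of these data known. The listed genes named were, for each list and comparison, up to 3 in each direction with the smallest adjusted p and no overlap between groups. Cdkn1a and Ccne1 in SCF against U fell outside this rule and were chosen after their values were seen.

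With 3 arrays a group, their number limits the precision.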

Additional observations from a re-analysis of the deposited data

How the results depend on the processing

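Under the alternatives tried, 847 of 896 fold changes of the 10 genes kept their direction and their side of the threshold, 19 lost a call, 8 gained one and 22 changed sign, and the cause was not tested. Signal over background limits Cdk6, Cdkn1b and the dimmer probes, and 3 arrays a group limit every test.

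The number of genes called lower in C against A was 3 with median scaling in place of 5. In SCF against U it was 1 in place of 2 with median scaling, with the processed values of the authors, with no filter on dim probes, with the mean of all detected probes, with only the 6 arrays compared and with robust moderation without a trend, and between 1 and 2 when each array was left out.

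Signs changed in small differences, none of which had been called. In C against A, Cdk6 ranged from -0.15 to 0.39 when arrays were left out, and Rbl1 was 0.46 with median scaling. In SCF against U, Cdkn2c was -0.011 with the mean of probes and -0.0056 with array weights, and -0.050 to 0.16 when arrays were left out. In U against C, Cdk6 ran from -0.47 to 0.064 over the arrays left out. In SCF against C, median scaling gave 0.21 for Ccnd2, 0.12 for Ccnd3, 0.11 for Cdk4, 0.16 for Rb1 and 0.19 for Rbl1, and the mean of probes gave 0.26 for Ccnd3, 0.22 for Cdk4, 0.44 for Rb1 (adjusted p = 0.0131 by limma) and 0.057 for Rbl1. Array weights gave 0.071 for Ccnd2. With arrays left out, Ccnd2 lay between -0.18 and 0.090, Cdk6 between -0.014 and 0.52 and Rbl1 between -0.27 and 0.090.

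Calls were gained by Ccnd1 in C against A with median scaling (0.84), and by Ccnd3 in U against C with median scaling (0.41) and with the mean of probes (0.48). Cdk6 gained a call in SCF against U with the processed values of the authors (0.17) and with the 6 arrays compared. Without C replicate 3 it gained one in SCF against U and in SCF against C. Cdkn2d gained one in SCF against U with array weights (adjusted p = 0.0389 by limma). Rb1 in SCF against C, with its sign changed, was also called with the mean of probes.

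A and C may come from the same 3 mice, but no source says that equal numbers mark the same mouse, so the numbers were not used as pairs. The deviations of same-numbered A and C arrays correlated at -0.03, -0.08 and 0.01 and those of U and SCF at 0.04, -0.00 and 0.05. With the replicate number as a block, 5786 genes were called in C against A, 3104 in SCF against U, 6499 in U against C and 5276 in SCF against C, in place of 5846, 3184, 6549 and 5337. The block left the counts of the 10 genes at 2 higher and 5 lower, 3 and 2, 3 and 4, and 2 and 2 in that order, and it changed no call. Not every array correlated best with its own number. With arrays left out, the calls over all genes ranged from 5087 to 5962, 2445 to 3678, 5865 to 6908 and 4546 to 5826 in the same order.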

Other observations

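The 3 genes whose levels followed each of the 10 genes most closely over the 12 arrays were found by Pearson's r, as a description. The arrays of a group share their cells and their set, so r is set mostly by the 4 group means. Ccnd1 was nearest to 1700009N14Rik, Serpina3f and Hic1, each at r = 0.99. Hic1 had means of 6.05 in U and 7.21 with SCF, and its means in A and C lay below the dimmest level detected on any array. Cdk4 was nearest to Smyd5 (r = 0.98), Gm12174 (r = 0.98) and Pold2 (r = 0.97). Pold2, a subunit of DNA polymerase delta, had means of 8.91 in A, 10.08 in C, 9.00 in U and 9.97 with SCF, high in the same groups as Cdk4.

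Cdkn1b was nearest to AK157302, Fech and E2f2 (each r = 0.99). Fech, ferrochelatase, the last enzyme of haem synthesis, had means of 10.17 in A, 7.10 in C, 5.87 in U and 5.61 with SCF. Cdkn2c was nearest to St3gal5, Angptl7 and Cdr2 (each r = 0.99). Cdkn2d was nearest to Il16 (r = 0.97), Bcl6 (r = 0.97) and Arrb2 (r = 0.96), and Bcl6, a transcriptional repressor, had means of 9.65 in A, 6.37 in C, 8.17 in U and 7.16 with SCF. Ccnd3 was nearest to Hk3, Klf2 and Fam214b (each r = 0.96). Klf2, a transcription factor linked to quiescence of lymphocytes, had means of 9.92 in A, 7.07 in C, 8.11 in U and 6.89 with SCF.

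Rb1 was nearest to Cmas (r = 0.96), Mkrn1 (r = 0.95) and Klhl25 (r = 0.95), Rbl1 to Anp32e (r = 0.95), B3gnt5 (r = 0.93) and Agpat5 (r = 0.93), and Ccnd2 to Gm6776 (r = 0.94), Zfp873 (r = 0.93) and Ttc1 (r = 0.91). For Cdk6, near the detection limit, the nearest were Ufsp2 (r = 0.85), Zfp74 (r = 0.81) and Gm5446 (r = 0.80). Among the 10 genes themselves, taken at their brightest probes over 12 arrays, Cdkn1b and Cdkn2c were the closest pair (r = 0.97). Ccnd3 and Rb1 followed each other at r = 0.89. Ccnd1 ran opposite to Cdkn1b at r = -0.84, and Cdk4 ran opposite to Rb1 at r = -0.83. The other probes of Ccnd3 and Rb1, which differed from the brightest in several comparisons, were not correlated.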
